A study of Mus musculus with 2 samples.

Results

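Mature apical vomeronasal sensory neurons (VSNs) that carried V1R receptor mRNA were picked out of single-cell libraries of the vomeronasal organ (VNO) by their counts of unique molecular identifiers (UMIs), each UMI standing for 1 captured mRNA molecule. A cell barcode was a member if it held 200 to 9000 genes, at most 5% mitochondrial UMIs, at least 5 UMIs of *Omp* and more of it than of *Gap43*, and at least 3 UMIs of *Gnai2* and more of it than of *Gnao1*. It also had to hold at least 10 UMIs summed over the *Vmn1r* genes, at least 5 times as many as over the *Vmn2r* genes, and fewer than 5 UMIs of *Cyp2a5* and *Cyp2g1* together, which are detoxifying enzymes of supporting and gland cells. These limits were met by 507 of 24084 barcodes (282 of 12814 in library 1 and 225 of 11270 in library 2), which is 4.95% (exact binomial 95% interval 4.40 to 5.55) and 4.59% (4.03 to 5.22) of the 5694 and 4897 cells that passed the gene and mitochondrial limits. Both libraries came from whole, untreated VNOs of wild-type C57BL/6J male mice at postnatal day 60, dissociated with papain and collagenase, frozen and thawed before droplet capture, so that they are 2 captures of a single condition and no treatment or genotype was compared. The division of the mice between the captures is not stated, and p-values therefore measure only the spread between these 2 captures, which may be technical.

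The mouse VNO detects pheromones and other social chemosignals with sensory neurons of separate kinds. Apical VSNs carry receptors of the V1R family, which have short extracellular ends and couple to the G protein subunit Gαi2, whereas basal VSNs carry V2R receptors with a large extracellular domain and the subunit Gαo. Both send axons to the accessory olfactory bulb, and each VSN is known to transcribe 1 or very few receptor genes.

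The receptor that led in the largest number of members was *Vmn1r35*. It lies in a stretch of chromosome 6 in which some neighbouring V1R genes carry near-identical DNA around their RefSeq start sites. The sequences shown are those of *Vmn1r35* and of the leading genes whose window shared a run of at least 30 bases with its window. They were not chosen by how many members they led in. *Vmn1r32*, *Vmn1r33* and *Vmn1r39*, also on chromosome 6, led in 16, 15 and 16 members and are not among them. The windows are from RefSeq on GRCm38.p6, the build of the counts, and 92 of the 106 receptor genes that led in a member had one. Each sequence runs 5′ to 3′ on the gene's strand over 150 bases, from 129 bases before the annotated start site to base 21 after it, at chr6:66679664-66679813 (minus strand), chr6:66731263-66731412 (plus), chr6:66716869-66717018 (minus), chr6:66637732-66637881 (minus) and chr6:66777110-66777259 (minus). The capitals mark a run of 39 bases that is identical in all 5, from base 18 before the start to base 21 after it. In all 5 the bases after the annotated start begin with ATG, the letters of a start codon. In GENCODE vM21 the *Vmn1r35* gene, on the minus strand, begins at base 66685906, outside its window. The windows therefore need not lie where transcription begins, and this was not tested.
Vmn1r35: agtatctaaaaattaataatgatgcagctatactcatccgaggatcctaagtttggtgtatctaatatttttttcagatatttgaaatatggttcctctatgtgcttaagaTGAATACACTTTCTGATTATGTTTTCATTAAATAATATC
Vmn1r37: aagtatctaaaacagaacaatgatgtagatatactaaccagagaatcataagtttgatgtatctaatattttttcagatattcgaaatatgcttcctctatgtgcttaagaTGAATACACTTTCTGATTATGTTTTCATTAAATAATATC
Vmn1r36: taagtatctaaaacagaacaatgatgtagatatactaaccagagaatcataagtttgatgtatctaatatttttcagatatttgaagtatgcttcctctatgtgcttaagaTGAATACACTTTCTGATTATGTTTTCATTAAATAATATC
Vmn1r34: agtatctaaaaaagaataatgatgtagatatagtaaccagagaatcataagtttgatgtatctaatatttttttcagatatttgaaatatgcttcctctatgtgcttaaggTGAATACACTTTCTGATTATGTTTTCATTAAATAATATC
Vmn1r38: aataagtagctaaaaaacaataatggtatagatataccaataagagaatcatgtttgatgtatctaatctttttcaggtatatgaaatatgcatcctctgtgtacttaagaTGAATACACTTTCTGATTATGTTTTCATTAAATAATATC
The run was looked for on both strands as the letters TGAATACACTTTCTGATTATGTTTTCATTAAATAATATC, and the search is a description of letters, not of a binding site. It was in 5 of 206 V1R windows (2.43%) and in 5 of the 32851 windows of all genes (0.0152%). Those 5 were the ones printed, and that they hold the run follows from how they were chosen. The 5 genes led in 73 of 507 members (14.4%), and their counts were 27 for *Vmn1r35*, 21 for *Vmn1r37*, 11 for *Vmn1r38*, 9 for *Vmn1r34* and 5 for *Vmn1r36*. Their transcripts are also alike: pairs among them shared between 3.99% and 44.9% of the 31-base words of the transcript set with fewer words, so that reads could be split among these genes or lost by the counting.

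The label of the cells was checked against markers. *Omp*, the olfactory marker protein of mature chemosensory neurons, had a median of 11 UMIs per member (range 5 to 47) and *Gnai2*, which encodes Gαi2, a median of 49 (3 to 167), and both were used to choose the cells. Among markers that the rule did not use, *Nsg1*, a neuronal endosomal protein, was counted in all 507 members with a median of 28 UMIs, and *Meis2*, a homeodomain transcription factor of apical VSNs, in 504 with a median of 9. *Dner*, a transmembrane ligand with EGF-like repeats, was counted in 422 members (83.2%) with a median of 2 UMIs. *Tfap2e*, the transcription factor of basal VSNs, had a UMI in 6 members (1.18%). The markers therefore went the way the name says, and *Gnao1*, which the rule did limit, had a UMI in 18 members.

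The members held a median of 14040 UMIs (14670 in library 1 and 13456 in library 2, range 2822 to 109907) and 4024 genes, out of 108005626 and 95442231 UMIs in the 2 libraries. The cells they were compared with were also gated on UMIs, the immature ones without any limit on receptor genes. They were 79 mature basal VSNs (39 and 40) with a median of 17696 UMIs, and 198 immature apical VSNs (106 and 92) with a median of 9353.5. The libraries had 33 barcode sequences in common, 1 of them in a member and none in members of both. The doublet caller Scrublet marked 17 members, 0 basal and 10 immature cells. Over 3439 genes at 50 CPM (a gene's UMIs relative to all UMIs of the sum) or more, the member sums of the libraries had a Pearson r of 0.897 on the log2 scale, and 74 genes lay more than 2-fold apart, of which 50 were V1R genes.

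Some cells missed the rule by 1 criterion. The mitochondrial limit alone turned away 337 cells (median 6.46% mitochondrial UMIs, nearest inside 4.99% and nearest outside 5.00%). The limit on *Cyp2a5* and *Cyp2g1* alone turned away 155 cells with a median of 16 UMIs of these genes. The floor on *Omp* turned away 96, that on V1R UMIs 71 (nearest inside 11, nearest outside 9), the order of *Omp* and *Gap43* 12, the ratio of V1R to V2R UMIs 11, and the floor on *Gnai2* and its order against *Gnao1* 1 each. At a mitochondrial limit of 10%, 803 cells met the rule.

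V1R mRNA in a member came almost wholly from 1 gene. The sum over V1R genes had a median of 178 UMIs (quartiles 97 and 276.5, range 11 to 1367), close between libraries at 181 and 176, and the leading gene gave a median of 100% of it. The leading gene gave 90% or more in 474 members (93.5%) and less than 50% in 5. With a receptor counted as present at 3 or more UMIs, 451 members (89.0%, 95% interval 85.9 to 91.5) held a single V1R gene, 45 held 2 and 11 held more. The share was 89.0% in library 1 and 88.9% in library 2. Since the rule set only the sum over the family, these values are a description of how it was spread among genes. The share depended on the receptor floor and on depth, at 84.8% with a floor of 2 UMIs, 92.1% with a floor of 5 and 92.8% with each cell thinned to 5000 UMIs.

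**Figure D1:**
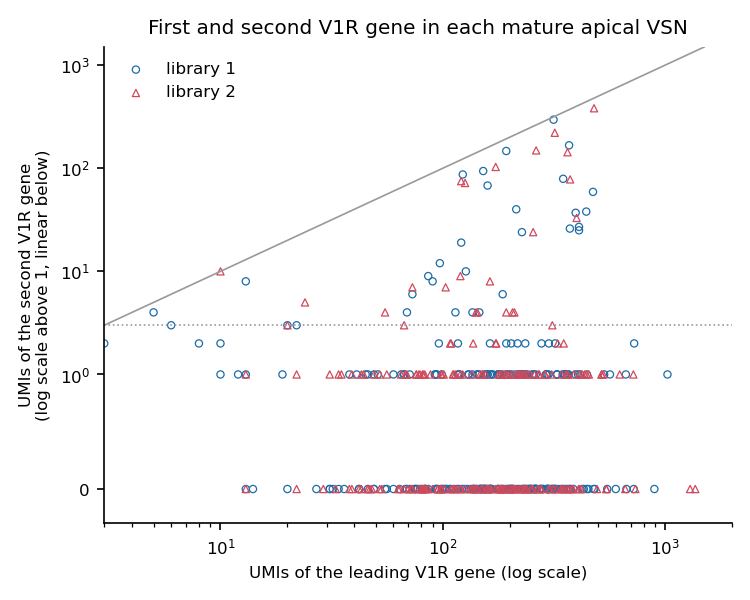
Each point is 1 of the 507 mature apical VSNs, with the UMIs of its leading V1R gene on the x axis (log scale) and of its second V1R gene on the y axis (log above 1, linear below). Circles are library 1, triangles library 2, the grey diagonal marks equal counts and the dotted line 3 UMIs. Most members lie at 0 or 1 UMI of a second gene, and 56 lie on or above the dotted line (45 with 2 receptors and 11 with more).

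The 45 members with 2 receptors were not spread evenly over gene pairs. They held 25 different pairs, of which 6 were seen in more than 1 member and made up 26 of the 45. In 39 of the 45 both genes lay on the same chromosome, and in 24 within 100 kb of each other. Leading genes lay on chromosomes 6, 7, 17 and 13 in 202, 173, 75 and 56 members. Some pairs would therefore share a chromosome in any case, and that share was not worked out. The pair *Vmn1r47* and *Vmn1r49*, 44.4 kb apart on chromosome 6, was seen in 8 members (4 in each library), with a median of 4 UMIs of *Vmn1r47* and 117 of *Vmn1r49*, which was the stronger in all 8. *Vmn1r85* and *Vmn1r86*, 2.36 kb apart on chromosome 7, were seen together in 5 members (4 and 1) with a median of 26 UMIs of *Vmn1r85* and 396 of *Vmn1r86*, the stronger in all 5. Neither pair shared any 31-base word between its transcripts. *Vmn1r184* and *Vmn1r185* were together in 4 members, with a median of 35.5 UMIs of *Vmn1r184* and 421 of *Vmn1r185*, and shared 18.7% of the words. *Vmn1r35* with *Vmn1r36* (17.1% shared), *Vmn1r58* with *Vmn1r62* (21.7%) and *Vmn1r191* with *Vmn1r192* (0.342%) were together in 3 members each. Where words are shared, 2 receptors in a cell and 1 receptor with reads counted to its copy cannot be told apart.

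The choice of receptor was broad. Of 209 V1R genes in the counts, 106 led in at least 1 member (89 genes in library 1, 81 in library 2, 64 in both), 25 led in a single member, and 84 had no UMI in any member. Many of these 84 lie on chromosome 7 between *Vmn1r93* and *Vmn1r170*. Many there are annotated over spans much shorter than that of *Vmn1r35*, such as *Vmn1r100* (chr7:20417942-20418865). Whether genes without a UMI were silent or their reads were not counted was not tested. The 10 genes that led most often accounted for 161 members (31.8%). *Vmn1r35* (chr6:66678070-66685906, minus strand) led in 27 members (15 in library 1 and 12 in library 2) with a median of 317 UMIs, and had a UMI in 21 of the 480 other members and in 42 of 1272 macrophages, cells that should lack it (median depth 5468.5 UMIs). *Vmn1r37* led in 21 members (14 and 7, median 235 UMIs), *Vmn1r184* on chromosome 7 in 17 (11 and 6, median 600 UMIs), and *Vmn1r32* and *Vmn1r39* on chromosome 6 in 16 each (both 10 and 6, medians 178 and 121 UMIs). The next were *Vmn1r33* (15 members, median 67 UMIs), *Vmn1r85* (13, 165 UMIs), *Vmn1r226* (12, 282.5 UMIs), *Vmn1r233* (12, 74.5 UMIs) and *Vmn1r237* (12, 47 UMIs). Receptors that led in equal numbers of cells could differ in the UMIs they gave in each: *Vmn1r237* and *Vmn1r226* led in 12 cells each at medians of 47 and 282.5 UMIs. The relation of cell number to UMIs over all leading genes was not worked out, and the floor on V1R UMIs in the rule bears on both. By chromosome, the leading gene lay on chromosome 6 in 202 members (110 and 92, 33 of 51 genes there), on 7 in 173 (102 and 71, 40 of 103 genes), on 17 in 75 (41 and 34, 13 of 14 genes) and on 13 in 56 (29 and 27, 20 of 35 genes). In 1 member the lead was tied, and this cell is left out wherever members are grouped by receptor.

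**Figure D2:**
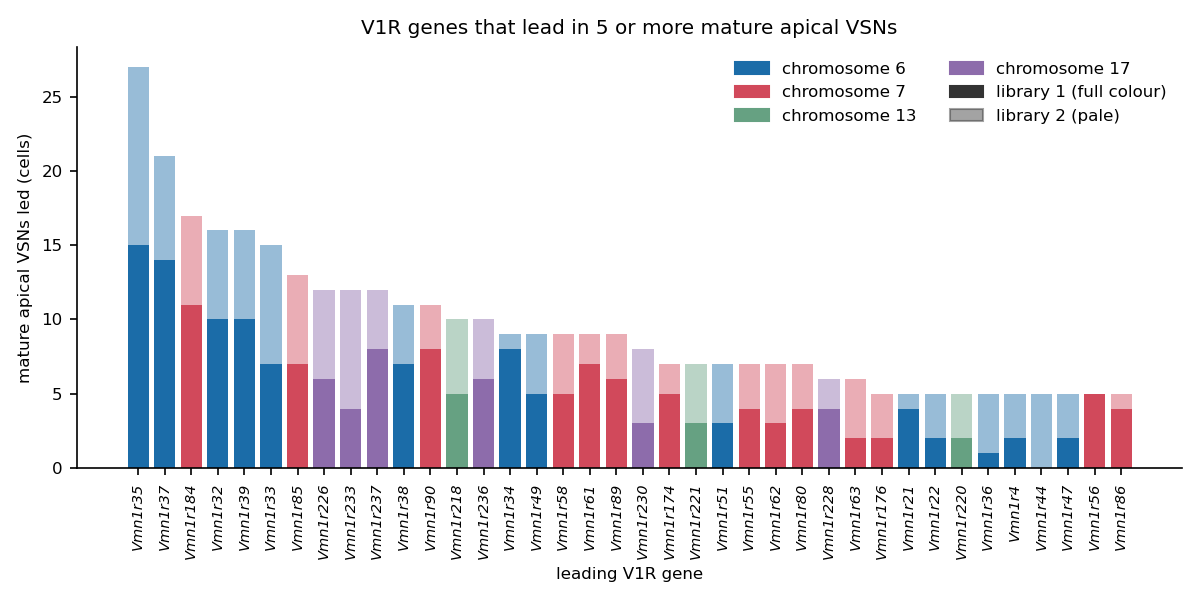
Bars give the number of mature apical VSNs (y axis, cells) led by each V1R gene that led in 5 or more (x axis), coloured by chromosome, with library 1 in full colour and library 2 pale on top. *Vmn1r35* is the tallest bar with 27 cells, 15 of them from library 1.

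Receptors of other families were sparse in the members. A V2R UMI was counted in 118 members (23.3%) and 3 or more in 44 (8.68%), against 71 (5.58%) and 8 (0.629%) of the 1272 macrophages, which had a median of 5468.5 UMIs per cell against 14040. Summed over cells the V2R level was 51.8 CPM in the members and 53.0 CPM in the macrophages. The sums were thus close, but the rule capped V2R UMIs in the members, so they are no test against this background. Of the 396 V2R UMIs, *Vmn2r7* gave 167, *Vmn2r3* 112 and *Vmn2r6* 42, in 53, 28 and 23 members. These genes belong to the group of V2Rs that basal VSNs are known to transcribe beside their main receptor. *Vmn2r7* reached 2 or more UMIs in 39 members, and 12 of these were among the 16 cells led by *Vmn1r39* (6 of 10 in library 1 and 6 of 6 in library 2). It also reached that level in 3 of 3 cells led by *Vmn1r219*, 3 of 5 led by *Vmn1r220* and 3 of 5 led by *Vmn1r47*. *Vmn2r3* reached 2 UMIs in 14 members, among them 3 of 3 led by *Vmn1r197* (median 13 UMIs, 1 cell in library 1 and 2 in library 2). The rule limited V2R UMIs relative to the V1R sum, so members could not have high V2R counts, and these cell counts are small. Genes of the H2-M10 family of nonclassical MHC molecules, which basal VSNs are known for, had a UMI in 16 members (3.16%), against 44 of 79 mature basal VSNs (55.7%). Formyl peptide receptors had a UMI in 2 members, odorant receptors in 34 (6.71%), and trace amine-associated receptors in 0 of 507. A floor of 3 cells in place of this 0 would be a share of 0.592%. Of the 198 immature apical cells, 70 had an odorant receptor UMI (35.4%) and 24 had 3 or more (12.1%). The summed level was 108 CPM there against 6.54 CPM in the members, and V2R genes summed to 120 CPM in the immature cells. Whether the immature group holds other kinds of cell was not tested.

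Among the members, several genes differed in level from receptor to receptor in the same way in both libraries. For the 23 V1R genes that led in at least 3 members of each library (273 members, 154 and 119), the mean log2(UMI + 1) of every gene was taken per receptor and library after scaling each cell to 14040 UMIs, and the 23 means of library 1 were set against those of library 2. Of 9116 genes with a mean of at least 0.1 scaled UMIs, 26 had a Pearson r of 0.7 or more (0.285%), against a median r of 0.0219 over all. The points share their library and its depth, and each mean rests on 3 to 15 cells. The correlation is a description over 23 receptors with no test, and its limits were chosen after the data were seen. The values below are mean scaled UMIs per cell in library 1 and library 2.

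*Pvalb*, the calcium-binding protein parvalbumin, had an r of 0.886. It was high in cells led by *Vmn1r89* (27.7 and 24.6), *Vmn1r85* (22.5 and 20.4), *Vmn1r236* (26.1 and 13.7), *Vmn1r35* (17.6 and 21.6) and *Vmn1r233* (17.5 and 20.2). It was low in cells led by *Vmn1r184* (1.65 and 1.55), *Vmn1r33* (0.749 and 1.65) and *Vmn1r230* (0 and 0.623). High and low cells therefore occurred on the same chromosome, since *Vmn1r35* and *Vmn1r33* lie in one cluster on chromosome 6. *S100z*, a calcium-binding S100 protein, had an r of 0.793 and a different order. It was highest in cells led by *Vmn1r80* (44.1 and 40.3) and *Vmn1r49* (43.8 and 36.6), high in those led by *Vmn1r226* (35.5 and 41.2), and lowest in cells led by *Vmn1r85* (3.72 and 5.29), where *Pvalb* was among its highest. *Pcp4l1*, a calmodulin-binding protein related to Pcp4, had an r of 0.865. Its level was 25.1 and 16.6 in cells led by *Vmn1r49*, 14.0 and 12.3 in those led by *Vmn1r37*, and 0 in both libraries in those led by *Vmn1r89*, where 0 of 9 cells had a UMI. Cells led by *Vmn1r236* and *Vmn1r237* were also near 0, at 0.207 and 0 and at 0.212 and 0.

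The genes past the limit also included 3 protocadherins and *Kirrel2*, which are put side by side after their values were seen. *Pcdh10*, a protocadherin, had an r of 0.847, with 8.55 and 8.88 scaled UMIs in cells led by *Vmn1r226*, 7.54 and 10.25 in those led by *Vmn1r37*, 6.26 and 3.42 in those led by *Vmn1r237*, and 0 and 0.208 in those led by *Vmn1r51*. *Kirrel2*, an immunoglobulin-family molecule of axon sorting in the accessory olfactory bulb, had an r of 0.723. It was counted in 21 of 21 cells led by *Vmn1r37* (7.19 and 8.74) and 9 of 9 led by *Vmn1r49* (8.89 and 11.7), but in 4 of 13 led by *Vmn1r85* (0 and 0.940). *Pcdh7* (r = 0.778) was likewise highest in cells led by *Vmn1r49* (4.71 and 4.85) and lowest in those led by *Vmn1r85* (0 and 0.130). *Pcdh17* (r = 0.730) had another order, with its highest level in cells led by *Vmn1r33* (3.51 and 3.95).

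The other genes of mean 0.5 or more that passed the limit ranged over several functions. *Prph*, the intermediate filament peripherin, had an r of 0.779 and was high in cells led by *Vmn1r89* (16.2 and 13.8) and *Vmn1r85* (14.3 and 10.596) and low in those led by *Vmn1r37* (0.495 and 1.21). *Gng13*, a G protein γ subunit of chemosensory cells, had an r of 0.730 and ranged from 27.7 and 37.4 in cells led by *Vmn1r85* to 10.0 and 3.59 in those led by *Vmn1r38*. *Sult1d1*, a sulfotransferase (r = 0.746), was highest in cells led by *Vmn1r85* (4.24 and 4.22) and had no UMI in the 28 cells led by *Vmn1r49*, *Vmn1r80* or *Vmn1r226*. *Lxn*, a carboxypeptidase inhibitor (r = 0.704), reached 5.54 and 3.01 in cells led by *Vmn1r89*. *Tmbim6*, a membrane protein of the endoplasmic reticulum (r = 0.758), ran from 27.9 and 35.7 with *Vmn1r33* to 9.34 and 10.18 with *Vmn1r237*. The remaining ones were *Spock2*, an extracellular proteoglycan (r = 0.771), and *Aldh2*, a mitochondrial aldehyde dehydrogenase (r = 0.708). *Gnai2* itself had an r of 0.750, but it was part of the rule. Of the lists of related genes, that of axon guidance and adhesion had 1 of 15 measured genes past the limit (*Kirrel2*, list median r 0.169) and that of vomeronasal transduction 1 of 24 (*Gng13*, median 0.118).

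These correlations did not hold alike under other treatments of the same cells. *Pvalb* stayed between 0.775 and 0.890, *Pcp4l1* between 0.797 and 0.903 and *S100z* between 0.6998 and 0.818 without called doublets, without cells over 50000 UMIs, after thinning, at a mitochondrial limit of 10% and with receptors of 2 members per library. After thinning *Pcdh10* fell to 0.667, *Lxn* to 0.636, *Pcdh7* to 0.563, *Kirrel2* to 0.555, *Sult1d1* to 0.473 and *Pcdh17* to 0.354. With receptors of 2 members per library *Prph* fell to 0.590, *Gng13* to 0.488 and *Pcdh17* to 0.333. *Tmbim6* had its lowest r, 0.681, after thinning. *Spock2* fell to 0.118 and *Aldh2* to 0.0890 at the 10% limit, and *Aldh2* to -0.0368 after thinning. The number of genes at 0.7 or more was 13 with receptors of 2 members per library and 21 after thinning, of which 9 and 6 were among the 26.

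**Figure D3:**
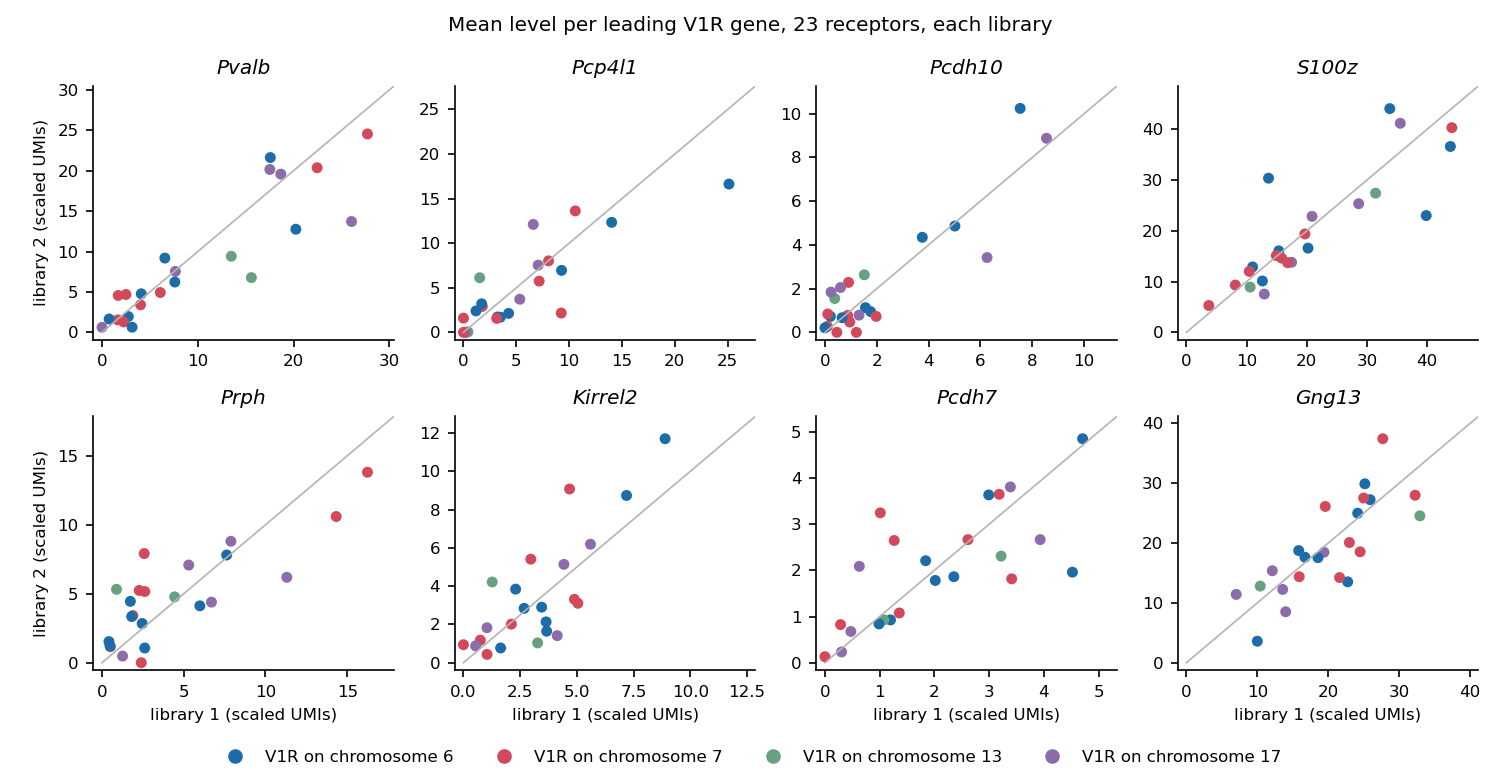
Each panel is a gene and each point 1 of 23 leading V1R genes, with the mean scaled UMIs of its cells in library 1 (x axis) against library 2 (y axis), coloured by the chromosome of the receptor, and the grey line marking equality. Points lie along the line for *Pvalb* (r = 0.886 on the log2 scale) and *Pcp4l1* (r = 0.865), with high and low receptors on the same chromosomes.

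Members grouped by the chromosome of the leading receptor differed in few genes when the UMI sums of the libraries were tested with edgeR. Cells led by a chromosome 17 receptor differed from all other members in 7 of 12633 genes (0.0554%), 2 higher (0.0158%) and 5 lower (0.0396%). *Pcdh10* was higher, at 275 and 311 CPM in the 2 libraries against 117 and 110 (CPM scaled by edgeR's TMM factors here and below), a log2 difference of 1.37 ± 0.13 (SE, adjusted p = 0.00856, edgeR). It had a UMI in 54 of 75 cells led by these receptors (72%) and in 205 of 431 others (47.6%), and of the receptors named above for it, *Vmn1r226* and *Vmn1r237* lie on chromosome 17. The other chromosome 17 receptors among the 23 were low for it, with 0.602 and 2.05 scaled UMIs for *Vmn1r230*, 1.32 and 0.788 for *Vmn1r233* and 0.234 and 1.84 for *Vmn1r236*. *Camk2n1*, an inhibitor of the kinase CaMKII, was higher at 703 and 816 CPM against 435 and 404 (0.86 ± 0.11, adjusted p = 0.0435, edgeR). The activity-induced transcription factors *Fos* (295 and 326 against 656 and 560 CPM) and *Junb* (166 and 177 against 330 and 313) were lower, at adjusted p = 0.0435 and 0.0456 in edgeR. The shares of cells with a UMI were close, at 85.3% against 85.4% for *Fos* and 66.7% against 66.4% for *Junb*, and the highest count in a cell was 27 against 219 for *Fos* and 42 against 79 for *Junb*. The list of immediate early and dissociation stress genes to which they belong had 2 of 17 genes lower and 0 higher, with a median log2 difference of -0.80 against -0.03 over all genes. The other genes that were lower were *Krt17*, *Sfn* and *Edn2*. *Krt17* had a UMI in 14 of the 75 cells and 88 of the 431 others, *Sfn* in 21 and 124, and *Edn2* in 2 and 37, and the member with most gave 19.0% of the *Krt17* and 26.6% of the *Edn2* UMIs. *Krt17* kept its call in all 8 alternatives that left both sums in. With the library as a block the count for chromosome 17 was 155 and *Pcdh10* kept its call, while without called doublets it was 2 (*Pcdh10* and *Krt17*). *Pcdh10* lost its call at the 10% mitochondrial limit (adjusted p = 0.145, edgeR), after thinning and without the library 1 sum of the chromosome 17 cells, and in each of these *Krt17* was the 1 gene of the 7 that kept its call, while the count was 7, 1 and 1. The count was 33 without their library 2 sum, and 90 and 67 without the library 1 and library 2 sums of the others.

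Cells led by chromosome 7 receptors differed from the rest in 3 of 12633 genes (0.0237%), 1 higher (0.00792%) and 2 lower (0.0158%). *Krt17* (85.1 and 62.7 against 227 and 230 CPM) and *Ly6d* (62.7 and 63.6 against 148 and 156 CPM) were lower at an adjusted p of 0.041 in edgeR. *S100a8*, a neutrophil protein, was higher, with UMIs in 4 of 173 cells against 8 of 333 and 48.3% of all its UMIs in 1 member. None of these was called after thinning or at the 10% mitochondrial limit. The count was 177 with the library block, 6 and 7 without the library 1 and library 2 sums of the chromosome 7 cells, and 98 and 68 without those of the others. For chromosomes 6 and 13 edgeR called 0 genes (0% each), with 497 and 529 genes at an unadjusted p under 0.05 and 13 and 15 genes called by DESeq2. With the library block it called 5 and 61 genes there. Leaving out 1 sum gave 19 to 58 calls for chromosome 6 (35 and 58 without the chromosome 6 sums of library 1 and 2, 19 and 55 without the others') and 56 to 136 for chromosome 13 (136 and 84, and 64 and 56).

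Against mature basal VSNs, 700 of 12898 genes differed (5.43%), with 252 higher (1.95%) and 448 lower (3.47%) in the apical members, and a median log2 difference of 0.09 over all genes. The genes of either gate, receptors of both families and mitochondrial genes were left out of the count. With the library as a block, which uses that both sums of a library came from the same cell suspension, 1977 genes were called (867 higher and 1110 lower). With 1 apical sum left out, either one, edgeR called 0 genes (1627 and 1581 at an unadjusted p under 0.05 without the library 1 and library 2 sum). Without the basal sum of library 1 or 2 it called 1308 or 1635.

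The apical identity list had 5 of 6 tested genes higher and 0 lower, with a median log2 difference of 3.92. Its genes and those of the basal list are known from the field for this very contrast, so their direction is a check of the gates. *Meis2* was at 682 and 638 CPM in the members and at 8.55 and 28.5 in basal VSNs (5.15 ± 0.38, adjusted p = 0.00242, edgeR). *Nrp2*, a semaphorin receptor of apical axons, was at 238 and 250 against 14.2 and 9.97 CPM, and *Nsg1* at 1831 and 1956 against 79.8 and 104. The basal list had 8 of 12 genes lower and 0 higher, with a median of -6.33, or -5.67 with the genes that had no UMI in a group set to their bound. *Robo2*, the Slit receptor of basal axons, was at 1.59 and 1.73 CPM against 88.3 and 98.3 (-5.77 ± 0.23, adjusted p = 0.000439, edgeR), and *Tfap2e* at 2.51 and 3.46 against 145 and 131. *H2-M10.5* was at 0.683 and 0.865 CPM against 455 and 382, and *H2-M10.1* had 1 UMI in the members, a ratio of 2182 to 1 with a counting interval of 390 to 86409. *B2m*, the light chain these molecules pair with, was lower too, at 152 and 158 against 597 and 624 CPM (-1.97 ± 0.10, adjusted p = 0.000695, edgeR).

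Among the genes with the largest differences outside those lists, *Gng2* and *Gng13*, both G protein γ subunits, were low in the basal cells. *Gng2* was at 1422 and 1428 CPM against 2.85 and 31.3 (6.38 ± 0.60, adjusted p = 0.00535, edgeR), and *Gng13* at 1410 and 1308 against 31.3 and 65.5 (4.81 ± 0.30, adjusted p = 0.00142, edgeR). *Gng8*, another γ subunit, went the other way by less, at 1306 and 1229 against 2170 and 1838 CPM (-0.66 ± 0.10, adjusted p = 0.0261, edgeR). Over the whole vomeronasal transduction list, 4 of 29 genes were higher and 1 lower, with a median of 0.21, and 11 were called with the library block. *Rtp1*, a chaperone that carries odorant receptors to the membrane, was at 420 and 445 CPM, with 3 UMIs in the basal cells, a ratio of 214 (counting interval 73.2 to 1038). *Prph* was at 333 and 282 CPM with 1 UMI in the basal cells, a ratio of 463 (83.0 to 18289), and *Pcdh7* at 151 and 138 CPM with 3 UMIs there, a ratio of 72.3 (24.7 to 351). *Jakmip1* (ENSMUSG00000063646), a microtubule-binding protein, had 301 and 251 UMIs in the members and 0 in the basal cells, so that it was at least 34.9-fold higher against a floor of 3 counts over the group. *Ncam2*, a cell adhesion molecule, was at 61.0 and 52.5 CPM with 2 UMIs in the basal cells. The axon guidance and adhesion list had 3 of 19 genes higher and 1 lower, with a median of 0.45 (0.26 with bounds), and 10 called with the block.

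On the basal side the largest differences outside the lists were in *Gm14496*, which had no UMI in the members and was at least 459-fold lower, *Cnpy1*, an endoplasmic reticulum protein of the canopy family (6.61 and 2.60 against 526 and 580 CPM), *Sncg*, which encodes γ-synuclein (3 UMIs in the members against 155 and 91.2 CPM), and *Dio3*, the deiodinase that inactivates thyroid hormone (0.683 and 1.44 against 75.5 and 51.3 CPM).

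Genes of protein folding in the endoplasmic reticulum were lower in the members as a group. Of 17 tested chaperone genes, 12 were lower and 1 higher, with a median log2 difference of -1.25 against 0.09 over all genes. Their summed level was 5072 and 5000 CPM in the apical members and 12818 and 12871 CPM in the basal cells. *Hspa5*, the main Hsp70 chaperone of this compartment, was at 597 and 555 against 1784 and 1731 CPM (-1.61 ± 0.08, adjusted p = 0.000806, edgeR). *Sdf2l1*, a cofactor of it, was at 103 and 139 against 943 and 912 CPM (-2.94 ± 0.16, adjusted p = 0.00101, edgeR), and *Manf* at 434 and 444 against 2203 and 1896 CPM. *Creld2*, *Dnajc3*, *Pdia6*, *Hyou1*, *Dnajb9*, *Hsp90b1*, *Pdia3*, *Herpud1* and the transcription factor *Xbp1* were also lower, by between 0.92 and 2.94 on the log2 scale. *Calr*, the lectin chaperone calreticulin, went the opposite way, at 132 and 133 CPM in the members and 38.5 and 25.6 in the basal cells (2.04 ± 0.20, adjusted p = 0.00633, edgeR). The list had been seen to differ between these cell kinds in earlier results of these data, so its direction is not independent evidence. All 13 calls held in the fit with the library block and in DESeq2.

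**Figure D4:**
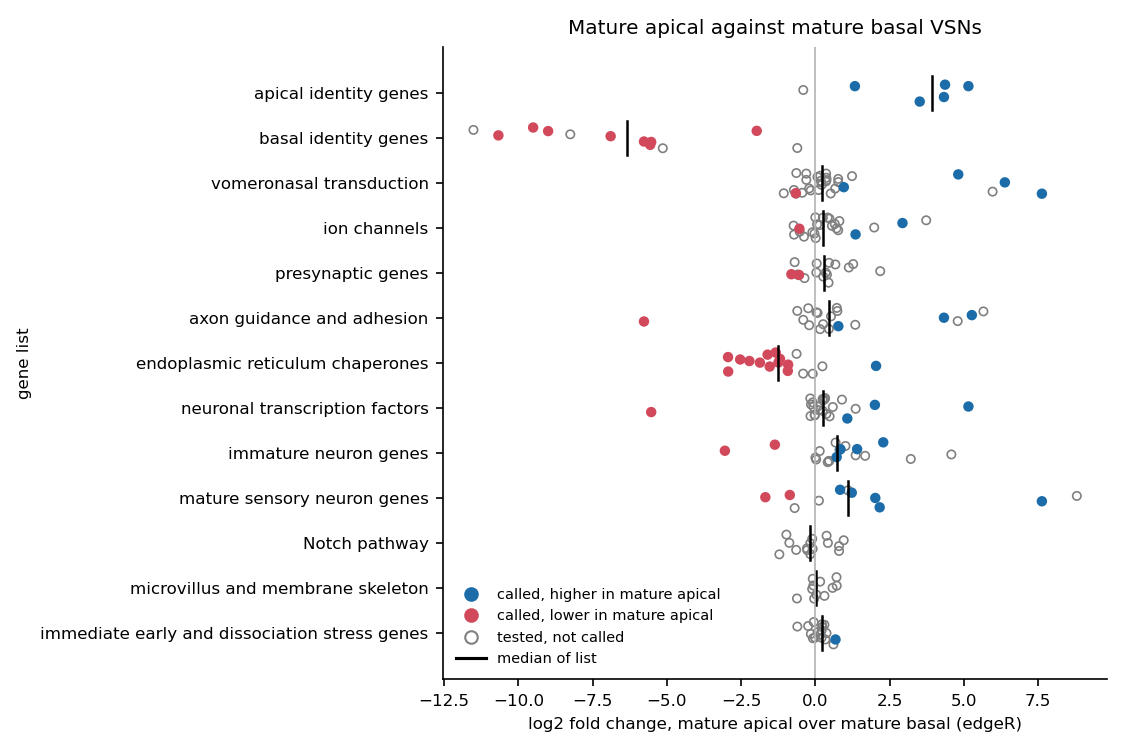
Each point is a tested gene of the list named on the y axis, with its log2 fold change of mature apical over mature basal VSNs on the x axis, filled where edgeR called it and open where it did not. Vertical bars are list medians, at -1.25 for the endoplasmic reticulum chaperones and 3.92 for the apical identity genes.

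The mature sensory neuron list had 5 of 11 genes higher and 2 lower (median 1.10, with 10 called by DESeq2 and 10 with the block), among them *Calb2*, which encodes the calcium-binding protein calretinin, lower at 6557 and 5441 against 12008 and 9787 CPM. The immature neuron list had 4 of 19 higher and 2 lower (median 0.72, or 0.68 with bounds), and 13 called with the library block. Transcription factors had 3 of 23 higher and 1 lower (0.25), ion channels 2 of 23 and 1 (0.25), presynaptic genes 0 of 16 and 2 (0.31), and immediate early genes 1 of 17 and 0 (0.21), where the block called 8, 7, 8 and 5. Oxidative phosphorylation had 1 of 84 higher and 6 lower (-0.22) and ribosomal proteins 1 of 83 and 2 (0.00), against 29 and 18 calls with the block. In the Notch pathway (15 genes, median -0.17) and the microvillus list (11 genes, median 0.03) edgeR called 0, with 1 and 4 genes at an unadjusted p under 0.05, 0 and 1 called by DESeq2, and 1 and 4 called with the block.

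Immature apical VSNs were gated by *Gap43*, *Meis2* and the absence of progenitor and basal markers, and 70 of the 198 held an odorant receptor UMI. Against these cells 3644 of 13184 genes differed (27.6%). In the mature members 1954 were higher (14.8%) and 1690 lower (12.8%), with a median of 0.06 over all. *Pvalb* had the largest rise, at 676 and 567 CPM in the members and 0.983 and 4.41 in the immature cells (7.87 ± 0.30, adjusted p = 5.62e-06, edgeR). It also had the highest r between libraries among the genes of mean 0.5 or more above. The other leading genes included *Dlx4*, a homeodomain transcription factor (60.1 and 54.4 CPM, with 3 UMIs in the immature cells, a ratio of 35.9 with an interval of 12.2 to 175), *Abo*, the blood group glycosyltransferase (82.3 and 80.0 against 2.95 and 3.31 CPM), *Qpct*, which encodes glutaminyl cyclase (408 and 391 against 28.5 and 18.8 CPM), and *Cacng2*, which encodes the AMPA receptor auxiliary subunit stargazin (58.7 and 72.2 against 2.95 and 6.62 CPM).

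The transduction machinery was higher in the mature members. Of 29 tested genes of the list 19 were higher and 3 lower, with a median of 0.87. *Plcb2*, the phospholipase of V1R and taste signalling, was at 32.9 and 28.1 against 2.95 and 3.31 CPM (3.27 ± 0.34, adjusted p = 0.000328, edgeR). *Ano1*, a calcium-activated chloride channel of the VSN, was at 58.0 and 60.1 against 4.92 and 14.3 CPM, and *Grk2*, a kinase that desensitises receptors, at 110 and 127 against 23.6 and 25.4. *Gng13* rose from 340 and 268 in the immature to 1477 and 1369 CPM in the mature cells (2.22 ± 0.14, adjusted p = 3.07e-05, edgeR), and *Rtp1* from 123 and 97.1 to 440 and 465. *Trpc2*, the main cation channel of VSN transduction, was not analysed here. The genes that were lower were *Gnb2*, *Gng12* and *Grk3*, other forms of the same kinds of protein. Ion channels had 10 of 26 genes higher and 3 lower (median 0.55), with the background potassium channel *Kcnk3* at 91.4 and 95.4 against 13.8 and 15.4 CPM.

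Genes of the dendritic knob and microvilli moved in both directions. Of 11 genes 5 were higher and 3 lower, with a median of 0.86. *Vil1*, the actin bundler villin, was at 161 and 157 against 21.6 and 28.7 CPM (2.67 ± 0.18, adjusted p = 4.72e-05, edgeR), and *Cdhr1*, *Slc9a3r1*, *Espn* and the motor *Myo6* were higher by 2.15 to 2.41 on the log2 scale. The general actins *Actb* and *Actg1* were lower, by 0.73 and 1.08. Presynaptic genes had 8 of 16 higher and 3 lower (median 0.64). *Slc17a6*, the vesicular glutamate transporter, was at 88.0 and 105 against 15.7 and 13.2 CPM (2.73 ± 0.21, adjusted p = 8.88e-05, edgeR), and *Syp* at 243 and 250 against 67.9 and 65.1, while *Pclo*, which organises the active zone, was lower at 79.2 and 70.4 against 196 and 167 CPM.

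Genes of axon growth were lower. The immature neuron list had 15 of 19 genes lower and 0 higher, with a median of -2.19. *Stmn2*, a regulator of growth cone microtubules, was at 387 and 310 against 5876 and 4932 CPM (-3.95 ± 0.15, adjusted p = 5.62e-06, edgeR), and *Dpysl3* and *Stmn1* were lower by 4.18 and 3.23 on the log2 scale. *Crabp1*, a retinoic acid binding protein, was at 58.2 and 39.6 against 2985 and 2140 CPM, and *Lsamp*, a neuronal adhesion molecule, at 0.954 and 1.21 against 148 and 89.4. Within the axon guidance and adhesion list, 7 of 19 genes were higher and 5 lower. *Kirrel2* (246 and 233 against 38.4 and 69.5 CPM) and *Epha5* (531 and 494 against 123 and 65.1 CPM) were higher, whereas *Nrp2* (249 and 262 against 702 and 591 CPM) and *Ncam1* (675 and 667 against 1439 and 1588 CPM) were lower. *Robo2* was at 1.67 and 1.81 against 34.4 and 39.7 CPM (-4.37 ± 0.31, adjusted p = 5.62e-05, edgeR). The immature cells had been gated to hold no *Tfap2e*.

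Transcription factors were lower as well, with 15 of 22 tested genes lower, 1 higher and a median of -0.80. *Uncx* had 1 UMI in the members and 34 and 32 in the immature cells, a ratio of 265 with a counting interval of 46.0 to 10627. *Sox11*, a factor of newborn neurons, was at 19.6 and 26.6 against 540 and 768 CPM (-4.83 ± 0.23, adjusted p = 1.03e-05, edgeR), *Lhx2* at 252 and 265 against 916 and 689, and *Bcl11b*, a zinc finger factor of VSN development, at 70.6 and 77.0 against 233 and 267. Its paralogue *Bcl11a* was the 1 gene that was higher, at 80.9 and 83.4 against 27.5 and 40.8 CPM (1.27 ± 0.21, adjusted p = 0.00287, edgeR).

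Of the 17 chaperones of the endoplasmic reticulum 9 were higher than in immature cells and 1 lower, with a median of 0.56. The 9 held 7 of the 12 that were lower than in basal cells. *Herpud1* was at 952 and 840 against 396 and 398 CPM and *Hspa5* at 625 and 581 against 439 and 374. The comparisons share the apical sums. Cytoplasmic ribosomal proteins had 46 of 83 genes lower and 1 higher (median -0.40), the exception being *Rps4x* at 5484 and 5382 against 3274 and 2834 CPM. Oxidative phosphorylation had 24 of 84 genes higher and 4 lower (0.16), mature sensory neuron genes 9 of 11 and 0 (1.37), immediate early genes 5 of 17 and 3 (0.34, with 14 called under the library block), and the Notch pathway 0 of 16 and 2 (0.18).

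**Figure D5:**
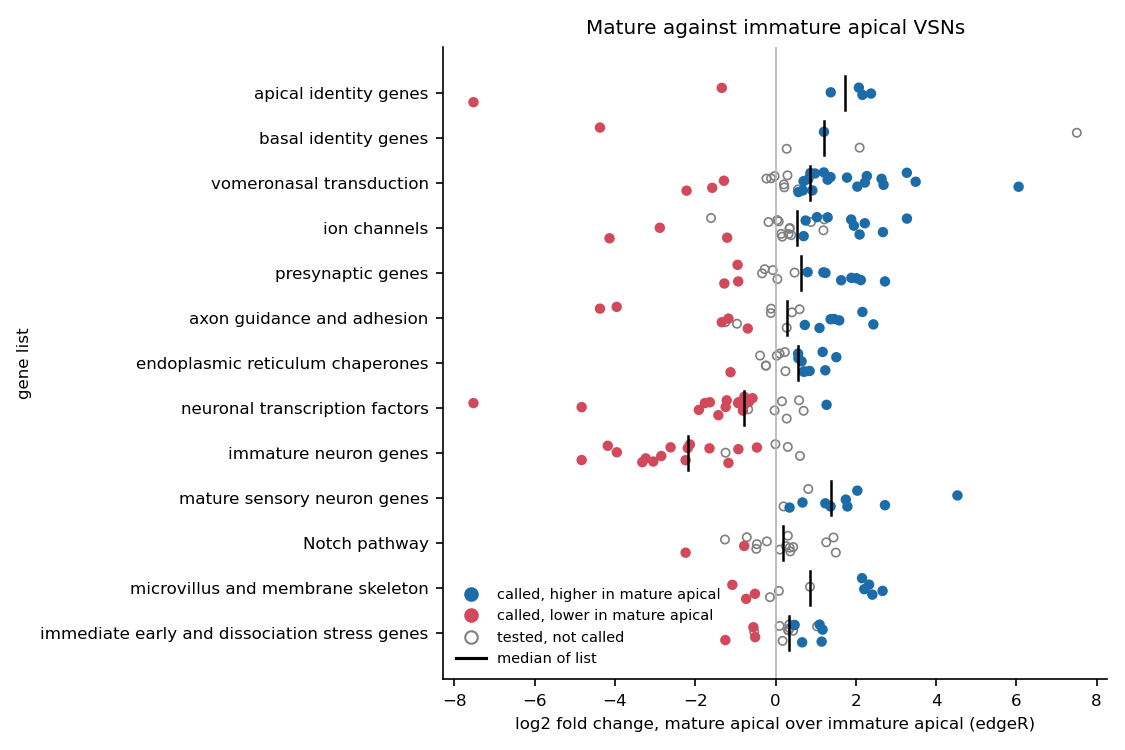
Each point is a tested gene of the list named on the y axis, with its log2 fold change of mature over immature apical VSNs on the x axis, filled where edgeR called it and open where it did not. Vertical bars are list medians, at -2.19 for immature neuron genes, -0.80 for transcription factors and 0.87 for vomeronasal transduction.

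Genes listed as markers of other cell types moved with some of these results. *Lcn3* and *Obp2a*, secreted lipid-binding proteins of VNO glands, were called higher than in immature cells, yet 1 member of library 2 with 109907 UMIs, led by a chromosome 13 receptor, held 14492 and 13199 of their UMIs, and 87.2% of all gland-list UMIs of the members. The gland list summed to 763 and 9698 CPM in the members of library 1 and 2, and to 763 and 396 without the 2 members over 50000 UMIs. *Bpifb3*, *Bpifb4* and *Mup4* of that list were at 0 in the members. Of the main olfactory neuron list 4 of 5 tested genes were higher than in immature cells (sums of 300 and 296 against 119 and 118 CPM), with its channel subunit *Cnga2* at 0. That list summed to 208 and 228 CPM in basal VSNs, but to 11.99 and 21.4 in macrophages. Over all cells that passed the gene and mitochondrial limits it summed to 65.05 and 73.9 CPM. Among these groups it was highest in the mature VSNs. Whether this RNA was their own or came from other cells was not tested. Macrophage genes summed to 521 and 560 CPM in the members, 218 and 139 in basal and 641 and 893 in immature cells, with 0 of 7 genes called by edgeR in either comparison, 5 and 1 at an unadjusted p under 0.05 against basal and immature cells, 2 and 0 called by DESeq2, and 5 and 4 with the library block. Neutrophil genes summed to 65.8 and 345, 14.97 and 1818, and 92.5 and 104 CPM, with *Ngp* and *Retnlg* at 0 in the members. Of 3 tested neutrophil genes 1 was higher and 2 lower than in immature cells. Against immature cells 2 of 3 sustentacular genes were higher (sums of 66.5 and 72.2 against 32.8 and 46.3 CPM), as were 1 of 4 genes of ensheathing glia (21.4 and 20.7 against 5.78 and 5.79), 2 of 6 of fibroblasts and mural cells (118 and 68.9 against 25.04 and 31.2) and 2 of 6 of basal epithelium (213 and 113 against 51.1 and 152). Against basal cells 1 of 6 genes of basal epithelium was higher. Endothelial genes summed to 16.5 and 32.7 CPM in the members and those of lymphocytes to 5.35 and 8.69, and *Cyp1a2* and *Sec14l3* were at 0. The part of RNA from other cell types in the called differences was not tested.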

How the data were processed

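Whole-VNO cells were captured in 2 libraries with 10x Chromium 3′ chemistry. Per the labels, the authors' processing notes name bcl2fastq, Cell Ranger 4, Seurat 3.2.3 and the mouse build mm10. The authors' methods state that the 2 libraries were joined with the aggr command of Cell Ranger. Whether that step equalised the depth of the libraries is not stated. The deposited values are raw UMI counts per gene and barcode (32285 gene IDs), with no normalization found in them. The libraries held 108005626 and 95442231 UMIs. *Trpc2* and *Lcn14* were not analysed here.

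The members, the gene lists and the tests were chosen with earlier results of these data known. The UMIs of a cell group were added up within each library and these sums compared with edgeR 4.0.16 in R 4.3.3 (TMM, quasi-likelihood, 2 sums a group, genes with at least 10 UMIs, Benjamini-Hochberg over all genes tested, threshold 0.05). DESeq2 1.42.0, RLE scaling, no filter, a mitochondrial limit of 10%, higher floors, thinning to 5000 UMIs, removal of Scrublet doublets (scanpy 1.11.5; they stay in otherwise), leaving out each sum, and the library as a block were alternatives. Leaving out cells over 50000 UMIs and all alternatives of the receptor-linked genes were added after the data were seen. Sums of 1 library came from the same suspension, so the block is a true pairing. The correlation of their deviations from the group means was 0.259 and 0.134 for the basal and immature comparisons, 0.178, 0.143, 0.0802 and -0.0646 for chromosomes 17, 7, 6 and 13. Library sums of a group differed by more than sampling noise (chi-square per degree of freedom 2.24 to 12.3). The edgeR step was tested on simulated data. Named genes were members of the lists, the 12 (5 for chromosomes) largest called log2 changes in each direction with at least 50 CPM in both libraries of the higher group and the same direction in both, the 20 most abundant genes, the 15 most overdispersed, and the V1R genes leading in the 10 largest numbers of members. Not all of these are described, some genes are not reported here, and receptor pairs, V2R genes and receptor-linked genes were named after their values were seen. Intervals are exact Clopper-Pearson at 95% and, like floors of 3 counts, cover counting error only. Receptor positions are GENCODE vM21 on GRCm38. Figures used matplotlib 3.10.9.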

Additional observations from a re-analysis of the deposited data

How the results depend on the processing

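The libraries number 2, cells of a library are not replicates, and the basal sums rest on 79 cells. For mature apical against mature basal VSNs, the number of genes called went from 700 to 1977 with the library block, 1745 with no filter on low counts and 233 after thinning, and ranged from 0 to 1635 when 1 sum was left out. It stayed within 1.5 times under DESeq2, RLE size factors, the 10% mitochondrial limit, doublet removal and removal of cells over 50000 UMIs. Against immature apical VSNs only DESeq2 moved the count beyond that, to 2410. For chromosome 13 the count was 61 with the block, 15 in DESeq2, 111 with no filter, 1 without cells over 50000 UMIs and 56 to 136 with 1 sum left out. For chromosome 17 it was 155, 22 and 139 by the first of these, 2 without doublets, 1 after thinning and 1 to 90 with 1 sum left out. For chromosome 6 it was 5, 13 and 178, 1 at the 10% limit and 19 to 58. For chromosome 7 it was 177, 27 and 172, 0 at the 10% limit, 5 without doublets, 0 after thinning, 5 without cells over 50000 UMIs and 6 to 98. Fewer samples and fewer genes are part of how leave-outs, thinning and filters act, and otherwise the cause was not tested.

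The members numbered 803 at the 10% limit, 335 with higher floors and 225 to 282 by library. The share with a single V1R gene was 85.1% at the 10% limit, 84.8% and 92.1% with floors of 2 and 5 UMIs, and 92.8% after thinning. Genes at r of 0.7 or more numbered 13 with receptors of 2 members per library. Of single genes, *Krt19* against basal cells turned to -0.23 (adjusted p = 0.892, edgeR) at the 10% limit and *Obp2a* against immature cells to -0.0207 (adjusted p = 0.959, edgeR) without cells over 50000 UMIs. Of the 75 list and top genes called against basal cells, the block and RLE scaling lost 0, DESeq2 1 and thinning 24, and leaving out an apical sum lost all 75. Against immature cells leaving out the mature apical sum of library 2 lost 45, DESeq2 26, thinning 18, and leaving out the other sums 7 to 16. The library block ended no call of a named gene in any comparison.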

Other observations

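Beside V1R genes, whose spread between members was widest, the genes with the largest variance over the Poisson expectation in both libraries were led by *Wfdc18* and *Apoe*. The ratio was taken on counts scaled to the median depth over 4038 genes of mean 0.5 or more, where its median was 1.13 in each library. All of the first 15 of that ranking were V1R genes. Among the others *Wfdc18*, a secreted gland protein, had a ratio of 232 and 455 in library 1 and 2, and *Apoe*, an apolipoprotein of phagocytes and glia, 84.3 and 173. The list went on with *Lcn3*, *Malat1*, *Bglap3*, *Obp2a*, *Ifi27l2a*, *Reg3g*, *Krt17*, *Cd74*, *Ly6d*, *Fth1*, *Atf3*, *Sfn* and *Gm42418*. Without called doublets 13 of these 15 were again among the first 15, and at a mitochondrial limit of 10% it was 11. The deepest member held 29503 UMIs of *Wfdc18*.

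The most abundant mRNAs of the members outside the mitochondrial and ribosomal genes included the nuclear RNA *Malat1* (38320 and 31087 CPM), the ferritin chain *Fth1* (8734 and 8414), the actin-binding peptide *Tmsb4x* (7808 and 8373), the selenoprotein *Selenom* (8037 and 7900) and the calcium-binding protein *Calb2* (6690 and 5650). *Selenom* was at 334 and 502 CPM in macrophages, and at 4345 and 3703 in the immature cells. *Gnai2* was itself among the first 20, at 3328 and 3480 CPM. In both libraries 554 genes had a UMI in at least 95% of the members.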
